A study of Mus musculus with 9 samples.

Results

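Forskolin given together with thapsigargin was compared with thapsigargin alone in cultured mouse podocytes, the epithelial cells that wrap the capillaries of the kidney glomerulus. The comparison used 6 of the study's 9 arrays, chosen by their titles: 3 arrays of cells given 2.5 µM thapsigargin, and 3 arrays of cells given 2.5 µM thapsigargin plus 10 µM forskolin, each for 16 hours. These are called the thapsigargin arrays and the combined arrays. The comparison was read over 22180 genes, taken from 41345 probe sets by keeping those with a single gene symbol. Where several probe sets named a gene, the one brightest on average across the 9 arrays stood for it.

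Cells treated with the vehicle DMSO gave the remaining 3 arrays, and their levels are set beside the results as a description. The cells of all 3 groups had been differentiated for 11 days at 37 °C before treatment, and the labels do not say which line or clone they were. Both groups compared carried thapsigargin, and no group received forskolin by itself, so every change described here is a change in cells already under stress. By their titles the arrays of each group are biological replicates, without a word on what was separate between them. The p-values therefore measure the spread between these arrays, which may be technical.

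Thapsigargin blocks the SERCA pump, the transporter that loads the endoplasmic reticulum (ER) with calcium, and the emptied store sets off the ER stress response through the sensors PERK, IRE1 and ATF6. Forskolin activates adenylyl cyclase, the enzyme that makes cyclic AMP (cAMP). Raised cAMP switches on protein kinase A, which phosphorylates the transcription factor CREB and also restrains RhoA, a small GTPase that drives actin stress fibres. In podocytes, whose foot processes depend on ordered actin, both calcium and cAMP are known regulators of cell shape.

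The values are log2 expression levels after RMA, a method that makes the arrays' distributions alike. A change in total RNA per cell is therefore invisible, and in such bulk samples fewer cells expressing a gene and less RNA per cell cannot be told apart. Array medians lay between 5.80 and 5.83 on the thapsigargin arrays and between 5.84 and 5.86 on the combined arrays, a difference of 0.0337 (two-sided exact permutation test, p = 0.1), and no smaller p is possible with groups of 3. Pearson correlations over all probe sets were 0.9923 to 0.9933 within the thapsigargin group, 0.9905 to 0.9918 within the combined group and 0.9868 to 0.9917 between them. Combined replicate 1 stood a little apart from the other combined arrays. The podocyte label could be checked only in part. Nphs1, which encodes the slit-diaphragm protein nephrin, had log2 levels of 6.25 to 6.50 on the thapsigargin arrays and 6.33 to 6.52 on the combined arrays, not far above the array medians, and Wt1, a podocyte transcription factor, had 6.39 to 6.53 and 6.48 to 6.60. Magi2, a further podocyte gene, was not analysed here.

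With forskolin added, 821 genes were called higher (3.70% of all genes tested) and 924 lower (4.17%), together 7.87%. A call is an adjusted p below 0.05 in limma, a linear model fitted to all genes, with Benjamini-Hochberg adjustment over all 22180 genes. The shares 3.70% and 4.17% belong beside every list count below, but they include many dim genes. In a fit to the 13048 genes above the median of all probe sets alone, 1089 were called higher and 1296 lower. Most members of the lists lie above that median, so these counts also belong beside every list count below. A list count near these shares is no result about the list. Most calls were small. The median size was 0.41 on the log2 scale among higher genes and 0.35 among lower genes, and 60 genes rose (0.271%) and 29 fell (0.131%) by at least 2-fold. All 60 and all 29 remained called when any single array was left out, and 52 and 23 of them also remained at 2-fold or more. For 26.1% of all genes the 3 values of the combined arrays did not overlap the 3 values of the thapsigargin arrays. The median change over all genes was -0.0060 and the median standard error (SE) of a change was 0.0823.

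The totals depended on single arrays. Without thapsigargin replicate 1 the counts were 600 higher and 586 lower, without thapsigargin replicate 3 they were 615 and 568, and without combined replicate 2 they were 550 and 600.

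**Figure D1:**
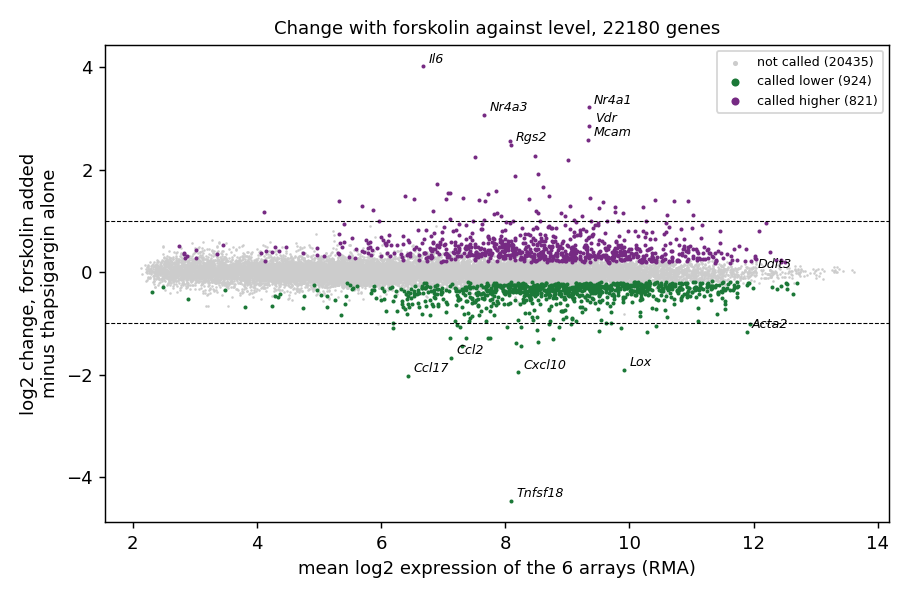
Each point is a gene, with its mean log2 expression on the 6 arrays (RMA, horizontal axis) and its log2 change, combined minus thapsigargin arrays (vertical axis). Purple marks the 821 genes called higher, green the 924 called lower and grey the rest, and the dashed lines stand at a 2-fold change. Most changes past 2-fold lie to the right of the array medians, and Ddit3, which encodes the stress factor CHOP, lies at 0.00.

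Among the genes that make and break down cAMP, the higher calls were mainly among the enzymes that break it down. Of 25 measured genes of cAMP synthesis and breakdown, 6 were called higher and 1 lower, with a median change of 0.04. Pde1a, which encodes a calcium-dependent phosphodiesterase, had log2 levels of 4.89, 5.32 and 4.94 on the thapsigargin arrays and 6.30, 6.45 and 6.28 on the combined arrays. The groups did not overlap, and the gene rose by 1.29 ± 0.12 (SE; limma adjusted p = 0.000202). Its thapsigargin and DMSO levels, the latter 5.03 to 5.32, lay below the array medians. Pde8a, a phosphodiesterase specific for cAMP, rose from 9.24, 9.24 and 9.20 to 10.05, 10.00 and 9.94, which is 1.70-fold (0.77 ± 0.06). Pde4b rose by 0.59 ± 0.07, Pde4d by 0.48 ± 0.10 and Pde10a by 0.36 ± 0.07. Pde4b, Pde4d and Pde8a are all classed as enzymes that take cAMP and not cGMP. The call of Pde4d was lost without any single thapsigargin array, with limma adjusted p between 0.0527 and 0.0718. Its values lay around or below the array medians.

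On the side of synthesis, Adcy9 was the adenylyl cyclase gene that passed the test. Its levels were 7.09, 7.12 and 7.24 on the thapsigargin arrays and 7.45, 7.82 and 7.84 on the combined arrays, a rise of 0.55 ± 0.10 (limma adjusted p = 0.0104). Its product is the membrane cyclase known to respond poorly to forskolin. The other 8 cyclase genes measured had changes between -0.10 and 0.14 that did not pass. Pde7a, another cAMP phosphodiesterase, was the member called lower, at -0.38 ± 0.05, and its thapsigargin values were 8.31 on all 3 arrays, a tie that lowers the estimate of its spread.

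Downstream of cAMP, 5 of 23 genes of the protein kinase A, EPAC and CREB machinery were called higher and 2 lower. These are 21.7% and 8.70%, beside 3.70% and 4.17% of all genes. Sik1, which encodes a kinase that shuts down CREB co-activators and is itself a CREB target, rose most. Its levels were 8.90, 8.86 and 8.88 on the thapsigargin arrays, 10.30, 10.29 and 10.17 on the combined arrays and 9.84 to 9.85 on the DMSO arrays. The rise was 2.59-fold (1.37 ± 0.05; limma adjusted p = 9.32e-07), and the combined arrays lay above both other groups. Crem, the gene of a CREB relative whose short form represses cAMP-driven transcription, rose from 6.17, 6.15 and 6.22 to 7.03, 6.99 and 7.01 (1.77-fold, 0.83 ± 0.05). The anchoring proteins Akap12 and Akap13 rose by 0.41 ± 0.06 and 0.48 ± 0.09, and Sik3 by 0.47 ± 0.06.

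The member that fell most was Prkar2b, which encodes a regulatory subunit of protein kinase A. It had 6.32, 6.59 and 6.46 on the thapsigargin arrays and 5.68, 5.62 and 5.81 on the combined arrays, a fall of 0.75 on the log2 scale (SE 0.10, limma adjusted p = 0.00206) without overlap. The combined values of Prkar2b lay below the array medians, where background was not checked. Pkia, a kinase inhibitor gene, was called at -0.24 ± 0.06, a call lost without any single array of the 6. The catalytic subunit genes Prkaca and Prkacb, at -0.02 and 0.02, and the CREB co-activator genes Crtc1, Crtc2 and Crtc3, at 0.04, 0.01 and -0.17, did not pass the test. Creb1 itself, at 0.24 ± 0.06, missed it with an adjusted p of 0.0598.

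The genes with the largest rises included textbook targets of CREB. Of 28 measured cAMP-CREB response genes, 11 were called higher and 3 lower, against 3.70% and 4.17% of all genes, and the median change of the list was 0.17. The NR4A family, orphan nuclear receptors that act as immediate early transcription factors, rose in all 3 members. Nr4a1 had log2 levels of 7.66, 7.86 and 7.69 on the thapsigargin arrays and 10.93, 10.96 and 10.96 on the combined arrays, 9.29-fold higher (3.22 ± 0.06; limma adjusted p = 1.49e-08). Nr4a3 had 6.14, 6.11 and 6.14 against 9.19, 9.20 and 9.21, 8.38-fold higher (3.07 ± 0.05). Nr4a2 was already high on the thapsigargin arrays, at 9.71, 9.71 and 9.70, and reached 11.06, 11.12 and 11.13, 2.63-fold higher (1.40 ± 0.05). The 3 genes differed in their DMSO levels relative to thapsigargin. Nr4a1 stood at 8.39 to 8.47 with DMSO, above its thapsigargin values, while Nr4a3 at 5.12 to 5.19 and Nr4a2 at 7.83 to 7.91 stood below theirs.

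Rgs2 encodes a regulator that speeds the switching-off of G proteins of the Gq class and is a known cAMP target. Its levels were 6.90, 6.74 and 6.89 on the thapsigargin arrays and 9.31, 9.36 and 9.31 on the combined arrays, 5.59-fold higher (2.48 ± 0.12; limma adjusted p = 3.58e-06). DMSO arrays had 6.07, 6.08 and 5.60. A second Rgs2 probe set changed by 0.71, and the mean of both gave 1.60. Among 22 RGS and receptor desensitisation genes Rgs2 was the single higher call, and Grk5 and Rgs19 were called lower, at -0.42 ± 0.07 and -0.29 ± 0.06. The Rgs19 call was lost without any single thapsigargin array and without combined replicate 3.

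Not all classical CREB targets moved the same way. Fos, with 6.90, 6.92 and 6.79 against 6.99, 7.04 and 6.99, changed by 0.14 ± 0.06 and did not pass (adjusted p = 0.272), and Fosb at 0.01, Junb at 0.20 and Ppargc1a at 0.23 did not pass either. Egr1, an immediate early zinc-finger factor, fell from 9.09, 9.05 and 9.09 to 8.39, 8.44 and 8.39 (-0.67 ± 0.09). Plat, the tissue plasminogen activator gene, was called at -0.41 ± 0.06 and Arid5a at -0.24 ± 0.06. The arrays were taken after 16 hours, and an earlier time was not measured.

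CREB binds the palindrome TGACGTCA, the cAMP response element (CRE), and also its shorter core TGACG, which reads CGTCA on the other strand. The promoter windows of the NR4A genes, of Rgs2 and of 2 further genes with large rises are shown because the letters of that core can be seen in them. Each line gives the 250 bases before an annotated transcript start, 5′ to 3′ along the gene, from RefSeq on GRCm38.p6, with every TGACG or CGTCA in capitals. Nr4a1 lies on the plus strand at chr15:101266596-101266845, Nr4a3 on the plus strand at chr4:48045055-48045304, Nr4a2 on the minus strand at chr2:57124004-57124253 and Rgs2 on the minus strand at chr1:144004150-144004399. Mcam lies on the plus strand at chr9:44134408-44134657 and Il6 on the plus strand at chr5:30012864-30013113.
Nr4a1: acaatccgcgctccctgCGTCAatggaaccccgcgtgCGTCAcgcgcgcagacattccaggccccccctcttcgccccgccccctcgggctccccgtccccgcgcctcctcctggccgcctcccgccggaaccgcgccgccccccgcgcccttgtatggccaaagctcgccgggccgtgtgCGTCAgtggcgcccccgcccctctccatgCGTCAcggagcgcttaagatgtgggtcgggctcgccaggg
Nr4a3: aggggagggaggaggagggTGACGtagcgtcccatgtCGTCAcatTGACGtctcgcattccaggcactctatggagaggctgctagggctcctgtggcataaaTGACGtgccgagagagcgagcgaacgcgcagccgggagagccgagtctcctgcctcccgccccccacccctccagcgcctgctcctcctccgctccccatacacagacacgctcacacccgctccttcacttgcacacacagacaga
Nr4a2: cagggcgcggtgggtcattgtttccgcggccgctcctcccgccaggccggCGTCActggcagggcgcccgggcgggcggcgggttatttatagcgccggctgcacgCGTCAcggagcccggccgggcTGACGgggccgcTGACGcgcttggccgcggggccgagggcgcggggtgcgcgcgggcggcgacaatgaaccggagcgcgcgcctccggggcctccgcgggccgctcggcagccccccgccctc
Rgs2: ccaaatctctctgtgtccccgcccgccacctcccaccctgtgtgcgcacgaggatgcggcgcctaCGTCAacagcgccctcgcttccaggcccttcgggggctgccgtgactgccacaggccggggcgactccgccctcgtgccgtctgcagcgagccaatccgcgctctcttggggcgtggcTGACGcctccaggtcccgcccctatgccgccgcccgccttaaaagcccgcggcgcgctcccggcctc
Mcam: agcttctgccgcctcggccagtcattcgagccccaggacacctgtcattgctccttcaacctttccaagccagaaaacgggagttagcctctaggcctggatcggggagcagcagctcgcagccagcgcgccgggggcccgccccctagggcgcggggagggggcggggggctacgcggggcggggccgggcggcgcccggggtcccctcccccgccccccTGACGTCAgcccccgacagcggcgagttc
Il6: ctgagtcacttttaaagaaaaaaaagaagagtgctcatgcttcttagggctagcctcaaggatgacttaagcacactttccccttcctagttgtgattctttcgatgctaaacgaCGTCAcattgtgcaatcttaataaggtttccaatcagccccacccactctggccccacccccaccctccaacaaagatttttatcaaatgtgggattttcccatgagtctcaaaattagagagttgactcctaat

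The 3 NR4A windows held 4 matches each, Rgs2 held 2, Il6 held 1, and Mcam held the full palindrome, which counts as a match on each strand. Of 20611 windows of the genes tested, 68 (0.33%) held at least 4 matches and 24.2% held at least 1. The windows shown were chosen for their matches and the count of 4 was taken from them, so that share is no test. Over all genes called higher, 268 of 859 windows (31.2%) held the core, and over those higher by at least 2-fold 23 of 64 (35.9%). The 859 windows belong to 636 genes and the 64 to 44. Windows of 1 gene can overlap and share a match, so they are not independent. The share was 25.8% over genes called lower, 12.5% over those lower by at least 2-fold (3 of 24 windows) and 23.8% over genes not called. The full palindrome was in 2.91% of windows of higher genes, 2.92% of lower genes and 2.27% of genes not called. A match of letters is a description and no binding was measured. The windows of Vdr, Fgf7, Kcnj16, Enpep and Il11, all with large rises, held no match in these 300 bases, and the table had windows for 103 of the 140 genes named by rule.

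Nuclear receptor genes, with Nr4a1, Nr4a2 and Nr4a3 among them, were called in the higher direction alone, 7 of 31 measured with 0 lower and a median change of 0.12, beside 3.70% of all genes called higher. Vdr encodes the vitamin D receptor, a ligand-activated factor with protective roles described in podocytes. It stood at 7.95, 7.95 and 7.87 on the thapsigargin arrays and at 10.78, 10.79 and 10.77 on the combined arrays, 7.24-fold higher (2.86 ± 0.05; limma adjusted p = 4.56e-09). With DMSO it was 9.81 to 9.82, so the combined arrays lay highest of the 3 groups and the thapsigargin arrays lowest. Rora rose by 0.56 ± 0.08, Nr2f2 by 0.50 ± 0.07 and Nr1d1 by 0.43 ± 0.06. The retinoid receptor partners of Vdr, Rxra, Rxrb and Rxrg, changed by 0.03, 0.12 and 0.09 and did not pass.

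**Figure D2:**
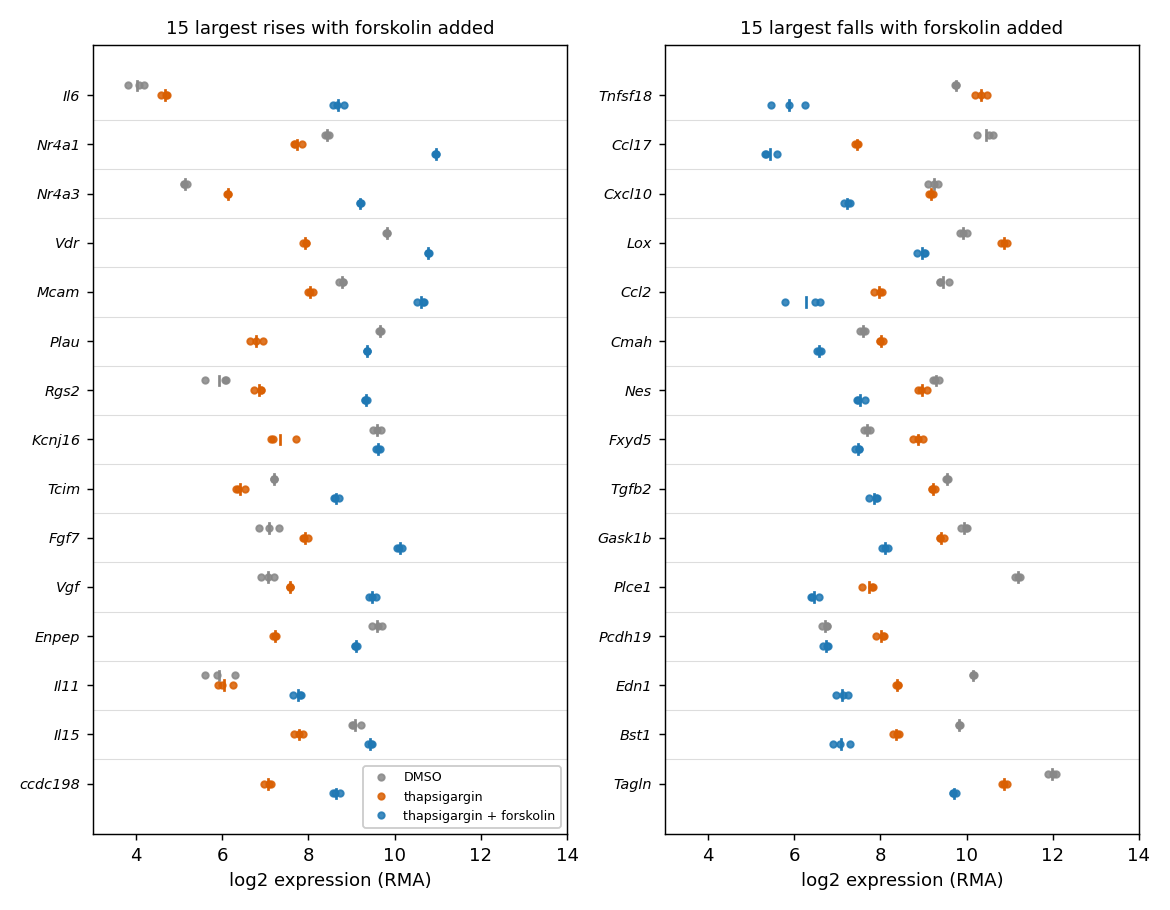
Log2 expression (RMA) of the 15 genes with the largest rises (left) and the 15 with the largest falls (right) named by rule, with a dot per array and a bar at the mean of each group (grey DMSO, orange thapsigargin, blue thapsigargin with forskolin). In each gene shown, the 3 blue dots lie apart from the 3 orange dots, and their place relative to the grey dots differs from gene to gene.

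Secreted signals changed in both directions, with the widest range of the gene lists described here. Il6, which encodes an inflammatory cytokine and a known cAMP target, had 4.71, 4.59 and 4.71 on the thapsigargin arrays and 8.56, 8.66 and 8.82 on the combined arrays (limma adjusted p = 9.17e-08). DMSO arrays had 4.18, 3.83 and 4.07. The thapsigargin values lay close to those arrays' lower quartiles, 4.53 to 4.54, where background was not checked, so no fold is given. The combined arrays were far above both other groups.

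Il11, a cytokine of the same family, rose from 5.91, 6.25 and 5.99 to 7.81, 7.82 and 7.63 (3.27-fold, 1.71 ± 0.16). Il15, which supports lymphocytes, rose from 7.78, 7.67 and 7.88 to 9.44, 9.38 and 9.48 (3.16-fold, 1.66 ± 0.08). Il15 lay at 9.01 to 9.22 with DMSO, below the combined arrays and above the thapsigargin arrays. Clcf1, another ligand of the gp130 receptor family, rose by 0.51 ± 0.06, whereas Lif and Osm of that family, at -0.02 and -0.11, did not pass.

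Tnfsf18, which encodes the ligand of the T cell co-stimulatory receptor GITR, had the largest fall on the arrays. Its levels were 10.19, 10.33 and 10.47 on the thapsigargin arrays, 9.74 to 9.76 with DMSO, and 5.47, 6.25 and 5.89 on the combined arrays. The fall was 21.9-fold (-4.45 ± 0.17; limma adjusted p = 8.42e-07), and the combined values lay around the array medians. Of 29 interleukin and TNF-family ligand genes, 4 were called in each direction, Csf1, Il7 and Tnfsf15 being the other lower calls at -0.49, -0.57 and -0.41. The lower count was 2 without DMSO replicate 1 or any single combined array.

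Chemokine genes were called mainly lower, 6 of 29 against 2 higher, with a median change of -0.12. Ccl17, a ligand of CCR4, fell from 7.42, 7.45 and 7.48 to 5.34, 5.35 and 5.61 (4.05-fold, -2.02 ± 0.11). Its combined values lay below the array medians, so the size of the fold is uncertain. Cxcl10, an interferon-inducible ligand of CXCR3, fell from 9.23, 9.19 and 9.14 to 7.24, 7.16 and 7.29 (3.87-fold, -1.95 ± 0.07). Ccl2, the monocyte attractant, fell from 8.03, 7.84 and 8.0 to 6.59, 5.78 and 6.48 (3.19-fold, -1.67 ± 0.185), with combined replicate 2 lowest. The 3 genes differed in their DMSO levels. Cxcl10 at 9.11 to 9.34 with DMSO spanned its thapsigargin values, while Ccl17 at 10.24 to 10.61 and Ccl2 at 9.37 to 9.59 stood above both other groups.

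Cxcl12, the ligand of CXCR4, went the other way. It rose from 6.16, 6.38 and 6.48 to 7.75, 7.80 and 7.74 (2.68-fold, 1.42 ± 0.08; limma adjusted p = 9.27e-06), beside 9.10 to 9.18 with DMSO. Cxcl11 and Cxcl16 were called lower at -0.62 and -0.52. Chemokines often raised by NF-kB, Cxcl1 at -0.01, Cxcl2 at -0.13 and Ccl20 at -0.08, did not pass the test.

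Of 23 NF-kB factors and inhibitors, 3 were called lower (13.0%, beside 4.17% of all genes) and 1 higher (4.35%, beside 3.70%), and the median change was -0.03. Only 3 of the 23 lay below the median of all probe sets, and 1296 of the 13048 genes above it were called lower. Tnfaip3, which encodes the feedback inhibitor A20, fell from 8.59, 8.72 and 8.88 to 8.04, 8.14 and 8.18 (-0.61 ± 0.09), Nfkb2 was called at -0.38 ± 0.06 and Relb at -0.25 ± 0.05. Nfkbiz, the higher call at 0.25 ± 0.06, lost its call without DMSO replicate 3, thapsigargin replicates 2 or 3, or any combined array. The Relb call was lost without thapsigargin replicates 2 or 3 or combined replicates 1 or 2. Nfkbia, an inhibitor that NF-kB itself induces, had -0.20 and did not pass. Of 23 interferon-stimulated genes 2 were called lower, Cxcl10 and Ifit2 (-0.85 ± 0.08), and 4 were called without DMSO replicate 1. Isg15 at -0.41 and Usp18 at -0.58 did not pass, with adjusted p of 0.119 and 0.159.

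Among growth factors, Fgf7 was the single higher call of 27 genes. It encodes keratinocyte growth factor, a ligand made by mesenchymal cells for epithelial receptors, and had 7.89, 7.88 and 7.99 on the thapsigargin arrays and 10.10, 10.18 and 10.06 on the combined arrays (4.57-fold, 2.19 ± 0.10; limma adjusted p = 3.15e-06). Pdgfb, a mitogen for mesangial cells, fell from 9.36, 9.41 and 9.42 to 8.37, 8.50 and 8.58 (1.89-fold, -0.91 ± 0.06). Bmp2 fell by 0.82 on the log2 scale, Bmp6 by 0.40 and Igf1 by 0.33. Vegfa, the podocyte's main signal to the glomerular endothelium, changed by -0.09 and did not pass. Edn1, which encodes the vasoconstrictor endothelin-1, fell from 8.37, 8.40 and 8.41 to 6.98, 7.24 and 7.14 (2.42-fold, -1.28 ± 0.07), beside 10.14 to 10.17 with DMSO.

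Genes driven by the ERK kinase pathway were called lower more often than higher, 9 against 2 of 17, with a median change of -0.26, beside 4.17% and 3.70% of all genes. Etv5, an ETS factor used as an ERK readout, fell from 9.35, 9.33 and 9.31 to 8.53, 8.63 and 8.58 (1.68-fold, -0.75 ± 0.05). Its other probe set had a change of 0.14, of the opposite sign, and the mean of both gave -0.31. Ccnd1, which encodes cyclin D1, fell from 10.07, 10.06 and 10.12 to 9.26, 9.26 and 9.41 (1.71-fold, -0.78 ± 0.06). The 3 combined values of each gene lay below its 3 thapsigargin values. Emp1 fell by 1.07 on the log2 scale (-0.68 as the mean of its 2 probe sets), and the feedback genes Spry4, Dusp6, Spred1 and Spred2 were called at -0.50, -0.38, -0.26 and -0.29. Myc was called at -0.41 and Phlda1 at -0.46. The exceptions were Dusp2 and Dusp5, phosphatases that remove phosphate from ERK in the nucleus, which rose by 0.54 ± 0.10 and 0.52 ± 0.08.

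Of 19 AP-1 and EGR immediate early genes, 4 were called in each direction. Fosl2 rose from 10.17, 10.19 and 10.22 to 10.94, 10.89 and 10.97 (1.67-fold, 0.74 ± 0.05) and Maff from 8.16, 8.33 and 8.34 to 9.15, 8.81 and 9.04 (0.72 ± 0.09). Klf10, a factor induced by TGF-beta, fell from 9.10, 9.09 and 9.0 to 8.34, 8.48 and 8.24 (-0.71 ± 0.08), and Ier2 fell by 0.62. Jund and Klf4 were called higher at 0.37 and 0.31, and Klf6 lower at -0.27.

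Contractile actin genes were called in the lower direction, 13 of 30 with 0 higher (1 higher without DMSO replicate 1), and the median change of the list was -0.17. Most are targets of serum response factor (SRF), whose co-activators are released when actin polymerises. Acta2, smooth muscle actin, stood at 12.47, 12.47 and 12.48 on the thapsigargin arrays and 11.33, 11.33 and 11.25 on the combined arrays, a 2.24-fold fall (-1.16 ± 0.05; limma adjusted p = 1.79e-06). Tagln, which encodes the actin-binding protein transgelin, fell 2.26-fold from 10.82, 10.88 and 10.94 to 9.68, 9.74 and 9.68 (-1.18 ± 0.06). Myl9, a myosin light chain, fell from 9.26, 9.28 and 9.28 to 8.18, 8.60 and 8.76 (-0.76 ± 0.13), with combined replicate 1 lowest. In each of these genes the DMSO arrays were highest and the combined arrays lowest, Acta2 standing at 13.27 to 13.33, Tagln at 11.89 to 12.06 and Myl9 at 10.86 to 11.02 with DMSO.

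The remaining calls of the list were smaller. Cnn2 fell by 0.62 on the log2 scale, Pdlim7 by 0.49, Myh9 by 0.43, Fhl2 by 0.35, Vcl by 0.35, Tpm1 by 0.32 and Flna by 0.32. Srf itself fell from 9.67, 9.65 and 9.60 to 9.25, 9.27 and 9.23 (-0.39 ± 0.06), beside 9.15 to 9.32 with DMSO. The cytoplasmic actin genes Actb and Actg1, often used as references, were called at -0.37 and -0.31. Mrtfa at -0.17 and Mrtfb at 0.13, the SRF co-activators, and Cnn1 at 0.11, a smooth muscle gene, did not pass. The CArG box that SRF binds was searched only as the strict letters CCWWWWWWGG, with W for A or T. These letters were in 2.81% of promoter windows of genes called lower (26 of 925). They were in 1.28% of those of genes called higher and in 1.39% of those of genes not called. None of the 24 windows of genes lower by at least 2-fold held the strict letters. Those windows covered 21 of these 29 genes, and Tagln and Lox had none. Boxes with a differing letter were not counted, such as CCCTATATGG in the Acta2 window.

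Net1, an exchange factor for RhoA, rose from 8.70, 8.61 and 8.64 to 9.63 on all 3 combined arrays (1.97-fold, 0.97 ± 0.05), beside 10.82 to 10.94 with DMSO. Rnd1, a GTPase that opposes RhoA, fell from 8.13, 8.12 and 8.16 to 7.30, 7.40 and 7.40 (-0.77 ± 0.05). Cdc42ep3 fell by 0.78 (-0.47 as the mean of its 2 probe sets), Rhob by 0.52 and Rhoc by 0.42. Rhoa, Rac1 and Cdc42, the founding GTPases, had -0.06, 0.04 and 0.05 and did not pass. Arhgap24 and Arhgap28 were called higher at 0.39 and 0.32, and neither passed the test without thapsigargin replicates 1 or 2 or any single combined array.

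YAP and TEAD, which respond to cell tension, share several targets with the lists above and below. Of 23 such targets 7 were called lower and 1 higher (30.4% and 4.35%, beside 4.17% and 3.70% of all genes). Ccn2, the connective tissue growth factor gene, fell from 11.85, 11.88 and 11.85 to 11.13, 11.29 and 11.28 (1.54-fold, -0.63 ± 0.06), or -0.37 as the mean of its 2 probe sets. Gadd45b fell from 11.57, 11.59 and 11.60 to 10.59, 10.60 and 10.72 (1.93-fold, -0.95 ± 0.05), and Axl and Fjx1 by 0.55 and 0.58. Ccn1 and Ankrd1, the most used readouts, were called at -0.33 and -0.26. Yap1 at -0.10, Wwtr1 at 0.15 and Tead1 at -0.03 did not pass.

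**Figure D3:**
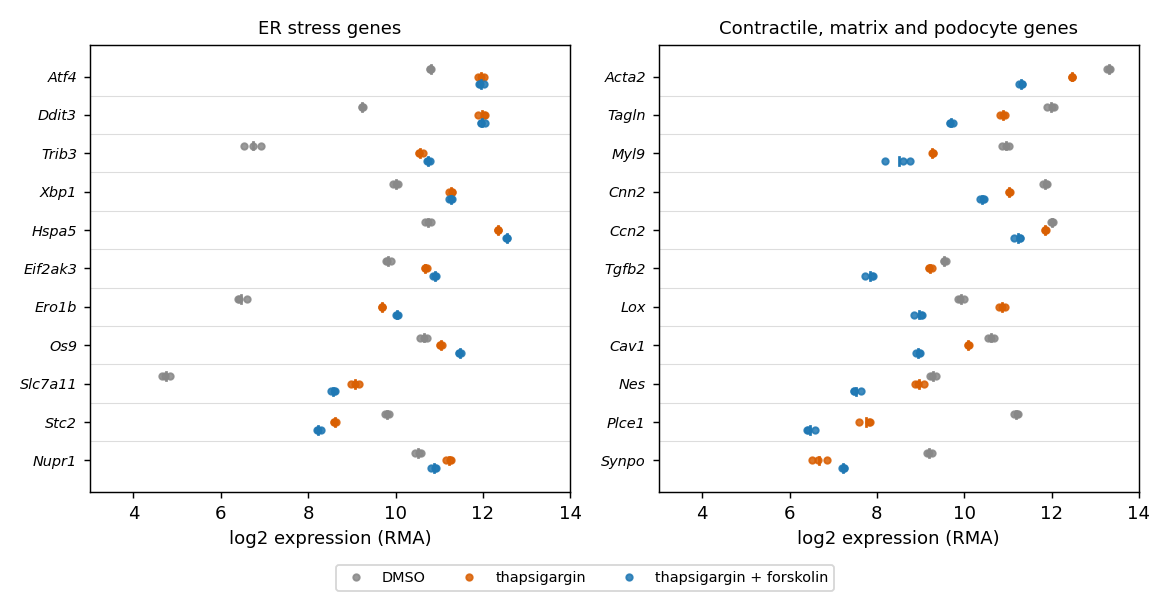
Log2 expression (RMA) of genes of the ER stress response (left) and of contractile, matrix and podocyte genes (right), with a dot per array and a bar at the group mean (grey DMSO, orange thapsigargin, blue thapsigargin with forskolin). On the left, Atf4, Ddit3 and Xbp1 have blue dots among the orange dots, and on the right all genes but Synpo have the blue dots below the orange dots.

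The TGF-beta list gave 3 higher and 4 lower calls of 29 (10.3% and 13.8%, beside 3.70% and 4.17% of all genes). Of the 29, 0 lay below the median of all probe sets. Of the 13048 genes above it, 1089 were called higher and 1296 lower. Tgfb2, a ligand that drives matrix production, had 9.26, 9.19 and 9.19 on the thapsigargin arrays and 7.73, 7.89 and 7.92 on the combined arrays (2.59-fold lower, -1.37 ± 0.06; limma adjusted p = 2.83e-06). Ltbp1, which stores latent TGF-beta in the matrix, fell by 0.53, Inhbb by 0.40 and the receptor gene Tgfbr2 by 0.32. The inhibitory genes Smad6 and Skil rose by 0.46 ± 0.06 and 0.34 ± 0.05. Tgfb1, with 8.54, 8.70 and 8.52 against 8.70, 8.74 and 8.68, changed by 0.12 and did not pass.

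Matrix genes were called in both directions. Lox encodes lysyl oxidase, which crosslinks collagen and elastin. It fell from 10.79, 10.87 and 10.93 to 8.84, 9.03 and 9.01, 3.74-fold (-1.90 ± 0.07; limma adjusted p = 8.42e-07), and its DMSO values of 9.86 to 10.00 lay between the other 2 groups. Its relatives Loxl4 and Loxl1 fell by 0.93 and 0.31, and Loxl3 at 0.21 did not pass. Of 30 genes of fibrillar collagens, crosslinking and other matrix, 7 were called lower and 5 higher, with a median change of -0.12. Tnc, tenascin C, fell by 0.81, Col5a2 by 0.71 and Col8a1 by 0.63. Col12a1 rose by 0.52 and Dcn, decorin, by 0.37. The main fibrillar collagen genes Col1a1 at -0.27, Col1a2 at -0.07 and Col3a1 at 0.03 did not pass. The higher count was 3 without thapsigargin replicates 1 or 2 or any single combined array.

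Basement membrane genes gave 5 lower and 1 higher call of 23, and the pair of nidogens, which link laminin to collagen IV, moved in opposite directions. Nid1 fell from 7.69, 7.64 and 7.90 to 6.66, 6.70 and 6.77 (2.05-fold, -1.04 ± 0.08), and Nid2 rose from 8.64, 8.62 and 8.64 to 9.44, 9.50 and 9.46 (1.79-fold, 0.84 ± 0.05). Neither gene's groups overlapped, and a second Nid1 probe set changed by -0.65. With DMSO both stood above the other groups, Nid1 at 9.38 to 9.61 and Nid2 at 11.62 to 11.74. Lama5 and Lamc1, chains of the mature glomerular laminin, were called at -0.49 each, and their partner Lamb2 at 0.15 did not pass. Col4a5 and Col4a4, chains of the mature glomerular collagen IV, were called at -0.44 ± 0.07 and -0.29 ± 0.07, and Col4a3 at -0.10 did not pass.

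In the plasminogen and matrix protease list 7 of 25 genes were called higher and 5 lower, and the urokinase gene and that of its receptor moved apart. Plau, urokinase, stood at 6.79, 6.65 and 6.94 on the thapsigargin arrays, 9.35 on all 3 combined arrays and 9.64 to 9.68 with DMSO. It rose 5.88-fold (2.56 ± 0.07; limma adjusted p = 1.81e-07), and the tie among the combined arrays lowers its estimated spread. Plaur, the receptor, which is linked to podocyte foot process loss, fell from 9.36, 9.21 and 9.33 to 8.53, 8.47 and 8.62 (1.70-fold, -0.76 ± 0.06). Adamts1 rose from 10.53, 10.42 and 10.43 to 11.61, 11.59 and 11.52 (2.16-fold, 1.11 ± 0.06). Mmp9, a gelatinase, fell 2.0-fold from 6.67, 6.63 and 6.75 to 5.83, 5.67 and 5.56, values below the array medians. The inhibitor genes Timp1 and Timp2 fell by 0.62 and 0.48, and Timp3 rose by 0.31. The higher count of the list was 4 without thapsigargin replicate 3.

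Adhesion genes were called mainly lower, 7 of 24 against 2 higher (29.2% and 8.33%, beside 4.17% and 3.70% of all genes). Cav1, which encodes the coat protein of caveolae, fell from 10.08, 10.08 and 10.10 to 8.98, 8.89 and 8.97 (2.21-fold, -1.14 ± 0.05). Itga3, the laminin receptor subunit that anchors podocytes, fell from 10.81, 10.80 and 10.90 to 10.24, 10.26 and 10.36 (-0.55 ± 0.06), and its partner Itgb1 was called at -0.21 ± 0.05. Itga6, Bcar1 and Itga5 fell by 0.58, 0.50 and 0.48. The collagen receptor subunit Itga1 rose from 8.80, 8.77 and 8.95 to 9.57, 9.60 and 9.54 (1.66-fold, 0.73 ± 0.06), and Tns3 rose by 0.60.

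Of 29 podocyte genes, 4 were called higher and 7 lower, and the median change was 0.01. Synpo, the actin-associated protein synaptopodin, rose from 6.51, 6.66 and 6.85 to 7.20, 7.24 and 7.24 (1.47-fold, 0.55 ± 0.08; limma adjusted p = 0.00309), beside 9.14 to 9.25 with DMSO. Ezr, ezrin, rose by 0.50 ± 0.05 and Kirrel, a slit-diaphragm gene, by 0.37 ± 0.06. Podxl, the charged surface protein podocalyxin that ezrin links to actin, fell from 7.92, 7.70 and 7.74 to 6.77, 7.0 and 7.22 (1.73-fold, -0.79 ± 0.11). Plce1, a phospholipase whose loss causes nephrotic disease, fell from 7.82, 7.58 and 7.84 to 6.41, 6.39 and 6.57 (2.44-fold, -1.29 ± 0.08), beside 11.13 to 11.24 with DMSO. Nes, the intermediate filament nestin, fell from 8.87, 8.94 and 9.08 to 7.48, 7.47 and 7.64 (2.70-fold, -1.43 ± 0.08), and Actn4 was called at -0.46 ± 0.05. The combined values of each of these falling genes lay below both other groups. Arhgap24 was called at 0.39 with an adjusted p of 0.0499. Nphs1 and Wt1 changed by 0.04 and 0.09 and did not pass, with adjusted p of 0.894 and 0.603.

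Prostaglandin genes were called in the higher direction alone, 5 of 19 (26.3%, beside 3.70% of all genes). Ptgs2, cyclooxygenase-2, rose from 11.73, 11.71 and 11.73 to 12.61, 12.71 and 12.71 (1.94-fold, 0.95 ± 0.06; limma adjusted p = 1.43e-05), beside 9.57 to 9.73 with DMSO. Abcc4, a transporter that exports both prostaglandins and cAMP, rose from 10.88, 10.88 and 10.89 to 11.30, 11.30 and 11.29 (0.41 ± 0.06). Hpgds at 0.34, Pla2g4a at 0.26 and Slco2a1 at 0.24 were called too, and these 3 calls were lost without any single array of the 6. The Hpgds values lay below the array medians. Ptger2 and Ptger4, receptors that raise cAMP, had -0.07 and -0.22 and did not pass.

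Potassium channels likewise had higher calls alone, 5 of 24 (20.8%, beside 3.70% of all genes). Kcnj16, an inward rectifier subunit, stood at 7.18, 7.14 and 7.72 on the thapsigargin arrays and 9.67, 9.58 and 9.61 on the combined arrays, 4.82-fold higher (2.27 ± 0.14). The combined values lay among the DMSO values, 9.49 to 9.69. Kcnk1, a background channel, rose from 6.98, 6.87 and 7.07 to 8.28, 8.44 and 8.37 (2.63-fold, 1.39 ± 0.07), above the DMSO values of 7.32 to 7.44. Kcnk5 rose by 0.46 ± 0.07, with thapsigargin values tied at 9.87. Kcnj2 at 0.57 and Kcnab2 at 0.30 were called with limma adjusted p of 0.0468 and 0.0432. The Kcnj2 values lay around or below the array medians. The count of the list was 3 without any single thapsigargin array or combined replicates 2 or 3.

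Of 17 circadian clock genes 5 were called higher (29.4%, beside 3.70% of all genes) and 0 lower (1 lower without DMSO replicate 1 or 2). Per1, a direct CREB target, rose from 10.41, 10.38 and 10.40 to 10.74, 10.77 and 10.75 (1.28-fold, 0.36 ± 0.05), and Dbp rose by 0.54, Rora by 0.56, Nr1d1 by 0.43 and Per3 by 0.33. Arntl at -0.04 and Clock at -0.16, the activators of the clock loop, did not pass.

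Atf4, Ddit3 and Xbp1, factors of the ER stress response, did not pass the test when forskolin was added, while some ER chaperones and PERK targets did. Atf4, the main factor of the PERK branch, had 12.03, 11.95 and 11.90 on the thapsigargin arrays and 12.01, 11.91 and 11.93 on the combined arrays, beside 10.79 to 10.82 with DMSO. Ddit3 had 12.02, 11.89 and 12.04 against 12.04, 11.96 and 11.95, beside 9.22 to 9.25. Xbp1, the factor of the IRE1 branch, had 11.29, 11.23 and 11.30 against 11.23, 11.27 and 11.29, beside 9.95 to 10.06. In all 3 genes the thapsigargin and combined values overlapped and both lay above DMSO. The changes were -0.01 ± 0.06, 0.00 ± 0.06 and -0.01 ± 0.05, with limma adjusted p of 0.97, 0.999 and 0.947.

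Trib3, a pseudokinase gene that CHOP induces, had 10.62, 10.53 and 10.53 against 10.71, 10.78 and 10.75, and did not pass (0.19 ± 0.09, adjusted p = 0.292). Atf3, with a change of 0.04, and Chac1, with -0.07, did not pass either. A missed threshold does not show that these levels were equal.

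Of 29 ER stress sensor and chaperone genes 5 were called higher (17.2%, beside 3.70% of all genes) and 0 lower, and the median change was 0.02. Only 1 of the 29 lay below the median of all probe sets, and 1089 of the 13048 genes above it were called higher. Os9, a lectin of ER-associated degradation, rose from 11.03, 11.03 and 11.05 to 11.45, 11.45 and 11.50 (1.35-fold, 0.43 ± 0.05; limma adjusted p = 0.00143). Ero1b, an ER oxidase, rose from 9.69, 9.68 and 9.69 to 10.06, 10.04 and 10.02 (1.28-fold, 0.36 ± 0.06). Hspa5, the chaperone BiP, was called at 0.20 ± 0.05 (adjusted p = 0.0426), with 12.34 on all 3 thapsigargin arrays and 12.54, 12.54 and 12.55 on the combined arrays, and that tie lowers its estimated spread. Eif2ak3, which encodes PERK, was called at 0.22 ± 0.05 and Edem1 at 0.27 ± 0.06. The calls of Hspa5, Eif2ak3 and Edem1 were lost without any single array of the 6, which left Os9 and Ero1b. Hsp90b1 at 0.02 and Calr at -0.01, abundant ER chaperones, did not pass.

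Targets downstream of PERK gave calls in the lower direction alone, 8 of 28 (28.6%, beside 4.17% of all genes) with a median change of -0.12. Only 1 of the 28 lay below the median of all probe sets, and 1296 of the 13048 genes above it were called lower. Slc7a11, the cystine transporter, fell from 9.08, 8.97 and 9.16 to 8.51, 8.61 and 8.58 (1.42-fold, -0.50 ± 0.07; limma adjusted p = 0.0023), beside 4.65 to 4.84 with DMSO. A second Slc7a11 probe set changed by -0.23. Stc2, a secreted stanniocalcin, fell from 8.59, 8.60 and 8.63 to 8.28, 8.22 and 8.19 (-0.38 ± 0.05). Its DMSO values, 9.76 to 9.86, lay above both other groups. Nupr1 fell from 11.27, 11.16 and 11.24 to 10.82, 10.89 and 10.93 (-0.34 ± 0.06), beside 10.44 to 10.59 with DMSO. Tnfrsf10b, the death receptor gene that CHOP induces, fell by 0.36, and its mean on the thapsigargin arrays was 0.12 above that with DMSO. The serine synthesis genes Psat1 and Phgdh were called at -0.34 and -0.31, Ddit4 at -0.27 and Slc7a5 at -0.21. The amino acid gene Asns at -0.12 did not pass. The count was 5 without thapsigargin replicate 1 and without combined replicate 2.

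Of 24 BCL2 family and caspase genes, 2 were called higher and 4 lower (8.33% and 16.7%, beside 3.70% and 4.17% of all genes). Only 1 of the 24 lay below the median of all probe sets. Of the 13048 genes above it, 1089 were called higher and 1296 lower. Bid, a pro-apoptotic BH3 gene, fell from 7.88, 7.91 and 7.87 to 7.27, 7.20 and 7.24 (1.57-fold, -0.65 ± 0.06), and Casp4, an inflammatory caspase, from 9.59, 9.58 and 9.55 to 8.84, 8.85 and 8.96 (1.61-fold, -0.69 ± 0.10). Bcl2l11, which encodes the pro-apoptotic protein BIM, rose from 7.11, 7.04 and 7.19 to 7.62, 7.56 and 7.55 (1.38-fold, 0.46 ± 0.09), and Bcl2, which restrains apoptosis, was called at 0.25. The 2 higher calls thus had opposite roles. Bak1 and Bok were called at -0.26 and -0.29. The higher count was 1 without any single array of the 6, when Bcl2l11 kept its call and Bcl2 lost it. The lower count was 2 without thapsigargin replicate 2 or any single combined array. Bbc3 and Pmaip1, further BH3 genes, had -0.01 and -0.18 and did not pass. Txnip, which encodes a thioredoxin-binding protein, was called at -0.24 ± 0.06 (adjusted p = 0.0392), a call lost without DMSO replicate 2 or any single array of the 6.

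DNA replication and mitosis genes were called lower in 7 of 30 cases (23.3%, beside 4.17% of all genes) and higher in 0. All 7 belong to the licensing and start of DNA replication. Mcm3 fell from 7.99, 7.99 and 8.13 to 7.24, 7.35 and 7.42 (1.63-fold, -0.70 ± 0.08), Mcm6 by 0.61, Mcm2 by 0.52, Mcm4 by 0.35, the loading factors Cdt1 and Cdc6 by 0.55 and 0.29, and Ccne1, cyclin E1, by 0.35. The mitotic genes Mki67 at -0.07, Cdk1 at 0.03, Top2a at -0.02 and Plk1 at -0.11 did not pass. The count was 4 without thapsigargin replicate 2. Of 20 p53 targets 4 were called lower and 1 higher, with Plk2 and Perp at -0.56 each and Trp53inp1 at 0.35, and Cdkn1a at 0.02 and Mdm2 at -0.06 did not pass.

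NRF2 antioxidant genes gave 6 higher and 3 lower calls of 18, with a median change of 0.15. Gclc and Gclm, the subunits of the glutathione-making ligase, rose by 0.36 ± 0.06 and 0.28 ± 0.05, Gstm1 by 0.47 ± 0.06 and Nqo1 by 0.35 ± 0.07. The lower calls were Abcc1 at -0.57 ± 0.06, Slc7a11 and Hmox1 at -0.29 ± 0.07. Slc7a11 is also on the list of PERK targets. Of 19 cholesterol genes Hsd17b7 and Srebf2 were called higher at 0.67 and 0.35 and 0 lower, with 5 higher without DMSO replicate 1. Of 24 glycolysis genes 3 were called in each direction (12.5% each, beside 3.70% and 4.17% of all genes). Only 2 of the 24 lay below the median of all probe sets. Of the 13048 genes above it, 1089 were called higher and 1296 lower. Eno2 rose by 0.71 ± 0.10, Pfkfb2 by 0.43 ± 0.05 and Pdk2 by 0.28, and Ldha, Pgam1 and Pfkl were called at -0.28, -0.26 and -0.26. The lower count was 0 or 1 without thapsigargin replicates 1, 2 or 3 or combined replicates 1 or 3.

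**Figure D4:**
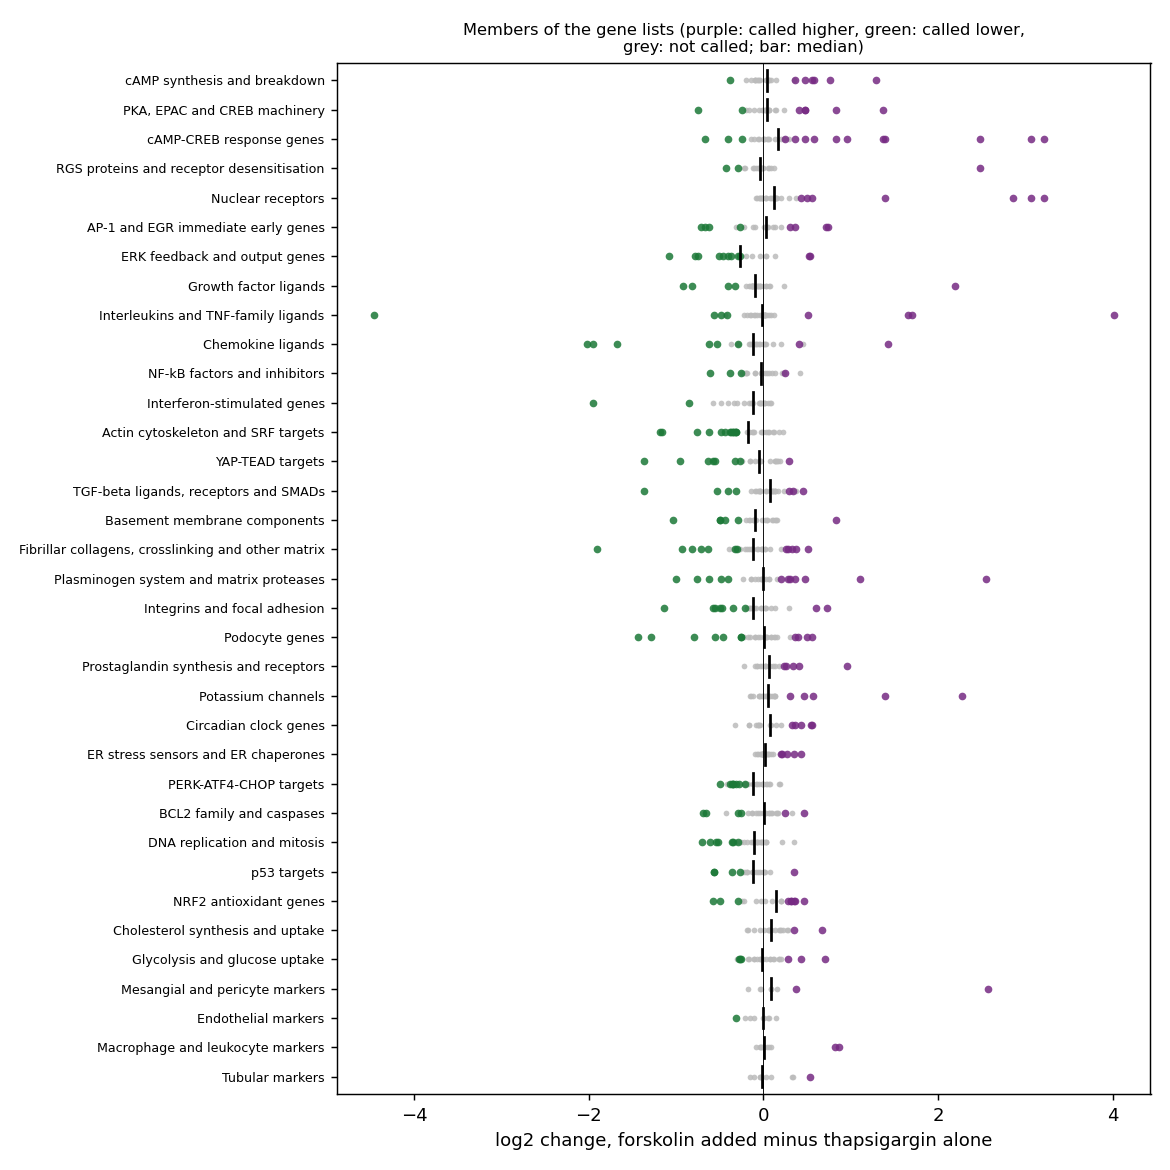
The log2 change, combined minus thapsigargin arrays, of each measured member of the gene lists shown, with purple for genes called higher, green for genes called lower, grey for genes not called, and a black bar at the list's median. Actin and PERK target lists hold green points and no purple ones, and the nuclear receptor, prostaglandin, potassium channel, clock and ER chaperone lists hold purple points and no green ones.

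Markers of other kidney cells moved in single genes and not across their lists. Of 8 mesangial and pericyte markers 2 were called higher. Mcam, a cell adhesion gene also found on pericytes and endothelium, rose from 7.98, 8.04 and 8.11 to 10.65, 10.69 and 10.51 (5.96-fold, 2.58 ± 0.07; limma adjusted p = 9.61e-08), and Pdgfrb rose by 0.38. The other 6 had changes between -0.17 and 0.16. Of 11 macrophage and leukocyte markers Cd14 rose by 0.87 ± 0.09 and Csf1r by 0.82 ± 0.12, while Ptprc at 0.08 and Adgre1 at -0.04, which define leukocytes and macrophages, did not pass. Endothelial markers gave 1 lower call of 9, Flt1 at -0.32, with Pecam1 at 0.05 and Cdh5 at -0.16. Tubular markers gave 1 higher call of 11, Cdh16 at 0.54 ± 0.05, and 2 without DMSO replicates 1 or 2 or thapsigargin replicate 3. The part of other cell types in the results was not tested.

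Several further genes among the 30 largest changes belong to no list. Tcim, a small regulator of Wnt signalling, rose from 6.52, 6.37 and 6.32 to 8.71, 8.61 and 8.60 (4.71-fold, 2.24 ± 0.06), above its DMSO value of 7.21 on all 3 arrays. A second Tcim probe set changed by 0.19, and the mean of both gave 1.21, so the size rests on 1 of 2 probe sets. Vgf, a neuropeptide precursor, rose from 7.56 on all 3 thapsigargin arrays to 9.41, 9.46 and 9.56 (3.78-fold, 1.92 ± 0.08). Enpep, the aminopeptidase that cleaves angiotensin II and is a podocyte surface enzyme, rose from 7.18, 7.22 and 7.24 to 9.13, 9.08 and 9.08 (3.68-fold, 1.88 ± 0.06), beside 9.47 to 9.70 with DMSO. The combined values of Enpep lay between the other groups. The gene annotated as ccdc198 rose 3.00-fold (1.58 ± 0.07).

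Among the falls, Pcdh19, a protocadherin, went from 8.07, 7.90 and 8.08 to 6.76, 6.67 and 6.78 (2.43-fold, -1.28 ± 0.07), values that overlapped those with DMSO, 6.65 to 6.77. Fxyd5, a regulator of the sodium pump, went from 8.87, 8.98 and 8.75 to 7.51, 7.51 and 7.41 (2.62-fold, -1.39 ± 0.07), a little below the DMSO values of 7.61 to 7.77. In both genes the thapsigargin arrays were the highest of the 3 groups. Cmah, which modifies sialic acid, fell 2.72-fold (-1.44 ± 0.06), Gask1b 2.47-fold (-1.30 ± 0.06) and Bst1, an ADP-ribosyl cyclase, 2.42-fold (-1.28 ± 0.09). The thapsigargin arrays enter both this comparison and any reading against DMSO, so the 3 levels are given side by side and no relation between the comparisons is drawn.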

How the data were processed

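Per the submitters' processing notes, the authors used affy and RMA, with no versions given, and the deposited values are log2 expression levels of probe sets on each array. Scanner files were not used here, and whether a probe set stood above background was not checked. Of 41345 probe sets 23521 carry 1 symbol, 1814 several and 16010 none. RefSeq Entrez IDs matched 23328 of them with 0 symbols changed. Of 1082 genes with more than 1 probe set, 0 had probe sets called in opposite directions. Groups and replicate numbers came from the titles. All 9 arrays entered 1 limma fit of the 3 group means (limma 3.58.1, R 4.3.3), and the two-sided contrast was tested with eBayes. Errors of changes are limma standard errors.

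The genes named by rule, 140 in all, are the 15 largest rises and 15 largest falls whose groups did not overlap and with the higher group mean over 5.83 (the probe sets' median), a fixed set, and up to 4 called members per list. Clone and predicted names were passed over. The comparison, lists and rule were chosen with earlier results of these data known, and other list members were named after their values were seen. Of 893 list entries 821 were measured, and some list results are not reported here. In 620 genes the 3 values of a compared group are equal, which lowers their estimated spread, and among the genes named by rule this holds for Plau, Vgf, Kcnk5 and Hspa5.

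Deviations from the group means correlated at -0.013, -0.074 and 0.184 for same-numbered arrays. For differently numbered arrays they ran from -0.234 to 0.254, the latter for thapsigargin replicate 2 with combined replicate 1. So few arrays cannot settle whether the numbers pair them, and the main fit used no pairing. Alternatives were another set of arrays or prior, array weights, other scalings, a filter on dim genes, the mean of probe sets, limma's treat, a replicate block and leaving out arrays. The procedure was tested on simulated data. Promoter windows (GRCm38.p6, 300 bases) covered 16990 of the genes tested, and letters were searched on both strands. The plots were made in Python 3.11.15 (matplotlib 3.10.9).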

Additional observations from a re-analysis of the deposited data

How the results depend on the processing

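Over 19 alternatives no gene was called in the direction opposite to the one reported. The counts of genes changed by at least 2-fold stayed between 55 and 63 higher and between 27 and 34 lower. The wider counts were less firm. Testing against a log2 change of 0.5 with limma's treat gave 94 higher and 44 lower genes. Leaving out 1 array gave between 550 and 935 higher and between 568 and 1101 lower genes. Leaving out thapsigargin replicate 2 and combined replicate 1 together, the lowest on an axis of within-group variation and an alternative chosen after seeing the data, gave 429 and 346. The Actin and SRF list then held 8 lower calls, the PERK target list 2 and the NF-kB list 0. Another quantile normalization gave 930 and 930, and centring on array medians 646 and 660. The replicate number as a block gave 770 higher and 812 lower genes, and since it is not known whether the numbers pair the arrays this is given only as a count. Of the 134 called genes named by rule, 105 kept the call under every alternative but treat and 49 under all. The median of the BCL2 and caspase list turned from 0.0044 to -0.0014 after another quantile normalization, and no other list's median changed sign under the scalings tried. With 3 arrays per group, 4208 genes had an unadjusted p below 0.05, and small changes lie near what these arrays can resolve. Background was not checked, so changes of genes below the array medians are the least sure.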

Other observations

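Genes of vitamin A metabolism were among those that rose by at least 2-fold, and they and the genes below were chosen after their values were seen. Aldh1a2, which makes retinoic acid, had 10.28, 10.23 and 10.21 on the thapsigargin arrays and 11.67, 11.61 and 11.62 on the combined arrays (2.62-fold, limma adjusted p = 7.21e-07). Cyp26b1, which breaks retinoic acid down, had 7.94, 8.01 and 7.93 against 9.45 on all 3 combined arrays (2.81-fold), beside 10.12 to 10.23 with DMSO. The maker and the breaker of the same hormone thus both rose, and the receptor genes Rara, Rarb and Rarg, at 0.14, 0.15 and 0.13, did not pass the test. Wnt4, a signal that shapes the nephron, rose 2.21-fold, from 7.29, 7.21 and 7.39 to 8.39, 8.60 and 8.34.

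Transcription factors outside the nuclear receptor list also rose. Cebpd, a C/EBP factor, had 6.33, 6.31 and 6.29 on the thapsigargin arrays and 7.78, 7.89 and 7.87 on the combined arrays (2.90-fold), Eya2 rose 2.92-fold and Tfap2a 2.62-fold. Sgk1, a kinase that controls sodium channels, rose 2.22-fold and Trpv4, a calcium channel that senses stretch, 2.41-fold. Sod3, the extracellular superoxide dismutase, rose 2.69-fold but with a wide spread, 6.86 to 7.55 on the combined arrays.

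Other falls of at least 2-fold were in genes of several kinds. Abcb1b, a drug efflux pump, fell from 6.78, 6.54 and 6.90 to 5.36, 5.68 and 5.90 (2.13-fold), and its combined values lay around or below the array medians. Tgm2, a protein-crosslinking transglutaminase, fell 2.07-fold, Lgals1, galectin-1, 2.01-fold from 12.45 on all 3 thapsigargin arrays, and Nppb, which encodes the natriuretic peptide BNP, 2.09-fold. Gadd45g fell 2.12-fold from 10.38, 10.44 and 10.41 to 9.26, 9.30 and 9.40, beside its relative Gadd45b described above.

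Probe sets that the annotation leaves without a symbol changed as well. In a fit over all 41345 probe sets, 114 of 16010 unnamed probe sets were called higher and 51 lower, and 18 and 2 of them by at least 2-fold. What they measure is not known here.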
